A study of Mus musculus with 2 samples.

Results

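A set of 9 interferon-stimulated genes was followed across mouse pancreatic cells after pancreatitis: Isg15, Ifit1, Ifit3, Irf7, Ifi27l2a, Bst2, Ifitm2, Ifitm3 and Gbp2. They were taken by symbol from a list of interferon-response genes, and they are 9 of the 31053 genes in the count tables. The EYFP positive group and the EYFP negative group were pancreatic cells after pancreatitis, both of genotype R26[CA]30EYFP on a C57Bl/6J background, and both carry the treatment label None. The reporter allele has a CA repeat of 30 units in front of EYFP, so that a frameshift in the repeat switches EYFP on in a cell and in its descendants. Each group was 1 single-cell library with no replicate, so no difference below has a test, and the intervals cover counting error only. How many animals went into a library, and how long after pancreatitis, is not stated in these sources.

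Interferons are secreted cytokines that act through cell-surface receptors and the Jak1, Jak2 and Tyk2 kinases. Type I interferons lead to the binding of interferon-stimulated response elements (ISRE) in promoters, and interferon gamma to the binding of gamma-activated sites (GAS). The induced genes encode antiviral effectors and parts of the pathway itself, and in the pancreas immune, endothelial and epithelial cells can all respond.

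The promoters of 5 members are shown because they differ in their matches to the ISRE, while 2 of them, Ifitm2 and Ifitm3, encode closely related proteins. Each run is the 250 bases before the RefSeq start site (build GRCm38.p6), printed 5′ to 3′ on the gene's own strand. Capitals mark every match, on either strand, to the core of the ISRE, written as TTTC, any 2 bases, TTTC (read as GAAA, any 2 bases, GAAA on the opposite strand). The windows are chr4:156200819-156201068 on the minus strand for Isg15, chr19:34640639-34640888 on the plus strand for Ifit1 and chr19:34583279-34583528 on the plus strand for Ifit3. For Ifitm2 and Ifitm3 they are chr7:140955962-140956211 and chr7:141010745-141010994, both on the minus strand.
Isg15: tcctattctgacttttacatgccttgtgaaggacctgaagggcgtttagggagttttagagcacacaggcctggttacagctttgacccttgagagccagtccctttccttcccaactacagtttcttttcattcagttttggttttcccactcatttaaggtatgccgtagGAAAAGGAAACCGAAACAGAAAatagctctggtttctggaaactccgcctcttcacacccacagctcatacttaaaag
Ifit1: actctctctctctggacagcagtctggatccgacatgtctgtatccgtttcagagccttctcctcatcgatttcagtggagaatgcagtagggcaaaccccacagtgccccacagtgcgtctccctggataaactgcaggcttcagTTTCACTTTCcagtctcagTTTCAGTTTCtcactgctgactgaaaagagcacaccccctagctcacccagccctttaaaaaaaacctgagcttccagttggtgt
Ifit3: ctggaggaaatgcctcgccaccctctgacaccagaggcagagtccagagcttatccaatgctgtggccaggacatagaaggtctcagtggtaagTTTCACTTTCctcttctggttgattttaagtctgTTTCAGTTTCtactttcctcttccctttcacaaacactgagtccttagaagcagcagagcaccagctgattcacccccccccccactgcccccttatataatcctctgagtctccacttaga
Ifitm2: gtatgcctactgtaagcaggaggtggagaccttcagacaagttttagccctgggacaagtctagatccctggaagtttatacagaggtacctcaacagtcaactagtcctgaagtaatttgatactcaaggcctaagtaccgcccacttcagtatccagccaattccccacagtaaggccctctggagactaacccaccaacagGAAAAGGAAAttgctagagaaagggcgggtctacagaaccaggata
Ifitm3: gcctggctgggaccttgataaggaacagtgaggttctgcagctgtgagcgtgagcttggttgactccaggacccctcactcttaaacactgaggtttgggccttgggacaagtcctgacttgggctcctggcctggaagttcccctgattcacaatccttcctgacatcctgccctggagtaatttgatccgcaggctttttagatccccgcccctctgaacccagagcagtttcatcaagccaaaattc
Isg15 held 3 matches, which overlap in 1 run, Ifit1 and Ifit3 held 2 each, Ifitm2 held 1, and Ifitm3 held none. The match nearest to the start site lay 57 bases before it in Isg15, 76 bases in Ifit1, 113 bases in Ifit3 and 37 bases in Ifitm2. Of the 8 members with a promoter in the RefSeq table, 6 held a match, which adds Bst2 and Gbp2 to the 4 above. Over all 27025 promoters of the same length, 821 held one (3.038%). The GAS core TTCNNNGAA, read on both strands, was found in 7.179% of all promoters and in 1 of the 8 members, Bst2. Irf7 had no match to either motif. A match is a match of letters, not a measured binding site, and the absence of one concerns only these windows. The promoter of Ifi27l2a is not shown.

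A cell was kept from 200 genes up and to 20% mitochondrial UMIs (unique molecular identifiers, the counted transcripts), which left 860 EYFP positive and 553 EYFP negative cells, with 2745342 and 4857210 UMIs. The median EYFP positive cell held 1007.5 UMIs and the median EYFP negative cell 8020, and 49.7% and 0.904% of cells held under 1000 UMIs. The libraries shared 2 kept barcodes. The EYFP positive library was 25.8% ductal or metaplastic epithelial-like, 27.0% T-like, 13% B-like and 10.1% acinar-like cells, while the EYFP negative library was 72.0% T-like and 18.8% B-like. Classes carry "-like" because they rest on markers alone, and all 149 genes of the interferon lists, members included, were left out of the clustering. The 13 T markers summed to 6571 and 6821 CPM (UMIs of a gene scaled to a total of 1000000) in the T-like cells of the EYFP positive and EYFP negative libraries, and the 10 B markers to 2627 and 3007 CPM in the same cells. Markers of acinar cells differed more between the libraries. The 16 acinar markers summed to 5931 and 68.0 CPM in T-like cells, and to 4649 and 56.7 CPM in B-like cells. A cluster with a median of 728 UMIs and no EYFP negative cell took in 146 of the 232 EYFP positive T-like cells, while another took in 300 of the 398 EYFP negative ones. In the same way 66 of the 112 EYFP positive B-like cells lay in a cluster of their own, with a median of 691 UMIs. The EYFP positive classes depended on the rule. With each cell classed by its own markers, 104 were T-like, 52 ductal-like, 14 macrophage-like and 529 acinar-like. By cluster these counts were 232, 222, 53 and 87. Of EYFP negative cells 383 were T-like by their own markers, beside 398 by cluster. A group of 6 EYFP negative cells held 58.4% to 95.1% hemoglobin UMIs and was kept apart. The share of cells with a UMI follows depth as well as expression, so levels are compared as CPM.

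Over all cells the members did not move together between the libraries. The membrane proteins Ifitm2 and Ifitm3 stood higher in the EYFP positive library, Irf7 stood lower, and the other 6 lay within 2-fold, Gbp2 only narrowly. Ifitm2 had 659 UMIs (240 CPM) in EYFP positive cells and 248 UMIs (51.1 CPM) in EYFP negative cells, a ratio of 4.70 (95% interval 4.06 to 5.46). Ifitm3 had 984 UMIs (358 CPM) and 493 UMIs (101 CPM), a ratio of 3.53 (3.17 to 3.94). Irf7 had 47 UMIs (17.1 CPM) in EYFP positive cells and 175 UMIs (36.0 CPM) in EYFP negative cells, a ratio of 0.475 (0.337 to 0.659). Thus 2 of 9 members were at least 2-fold higher and 1 was at least 2-fold lower, beside 26.8% of all 13282 genes with at least 10 UMIs that were higher and 8.06% that were lower.

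The other 6 ratios, EYFP positive over EYFP negative, ran from 0.503 for Gbp2 (62 against 218 UMIs, 0.373 to 0.670) to 1.62 for Bst2 (353 against 386 UMIs, 1.40 to 1.87). Isg15 lay at 0.756 (0.615 to 0.925), Ifi27l2a at 0.643 (0.596 to 0.694), Ifit3 at 1.32 (0.885 to 1.96) and Ifit1 at 1.5 (1.03 to 2.18). Gbp2 lies just outside the 2-fold line as reported, but it was below 0.5 in 9 of 11 alternatives, from 0.0919 with each cell thinned to 500 UMIs to 0.499 without the cell with the most Gbp2 UMIs in each library. Ifit3 passed to the other side of 1 in 2 of 10 alternatives, at 0.957 as a mean over cells and 0.281 thinned to 1000 UMIs, and Bst2 came to 0.969 thinned to 1000 UMIs. Irf7, just inside, stayed below 0.5 in 8 of 11 alternatives and reached 0.791 thinned to 1000 UMIs. Detection ran the other way from CPM for several members: an Ifit1 UMI was found in 3.26% of EYFP positive cells and in 6.51% of EYFP negative cells, and a Bst2 UMI in 16.9% and 39.4%. Thinned to 500 UMIs per cell, which left out no cell, these shares were 0.814% and 0.362% for Ifit1 and 4.42% and 3.44% for Bst2, so no order is read from the unthinned shares. Ratios after thinning come from a random draw and few UMIs. Thinning to 1000 UMIs also left out every cell with fewer, 427 of 860 EYFP positive and 5 of 553 EYFP negative cells. The ratios at 1000 UMIs, here and below, therefore do not rest on the same cells as the reported ones. At 500 UMIs per cell Isg15 kept 15 EYFP positive and 12 EYFP negative UMIs, and Ifit1 kept 7 and 2. Such ratios are given without an interval here and below.

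**Figure D1:**
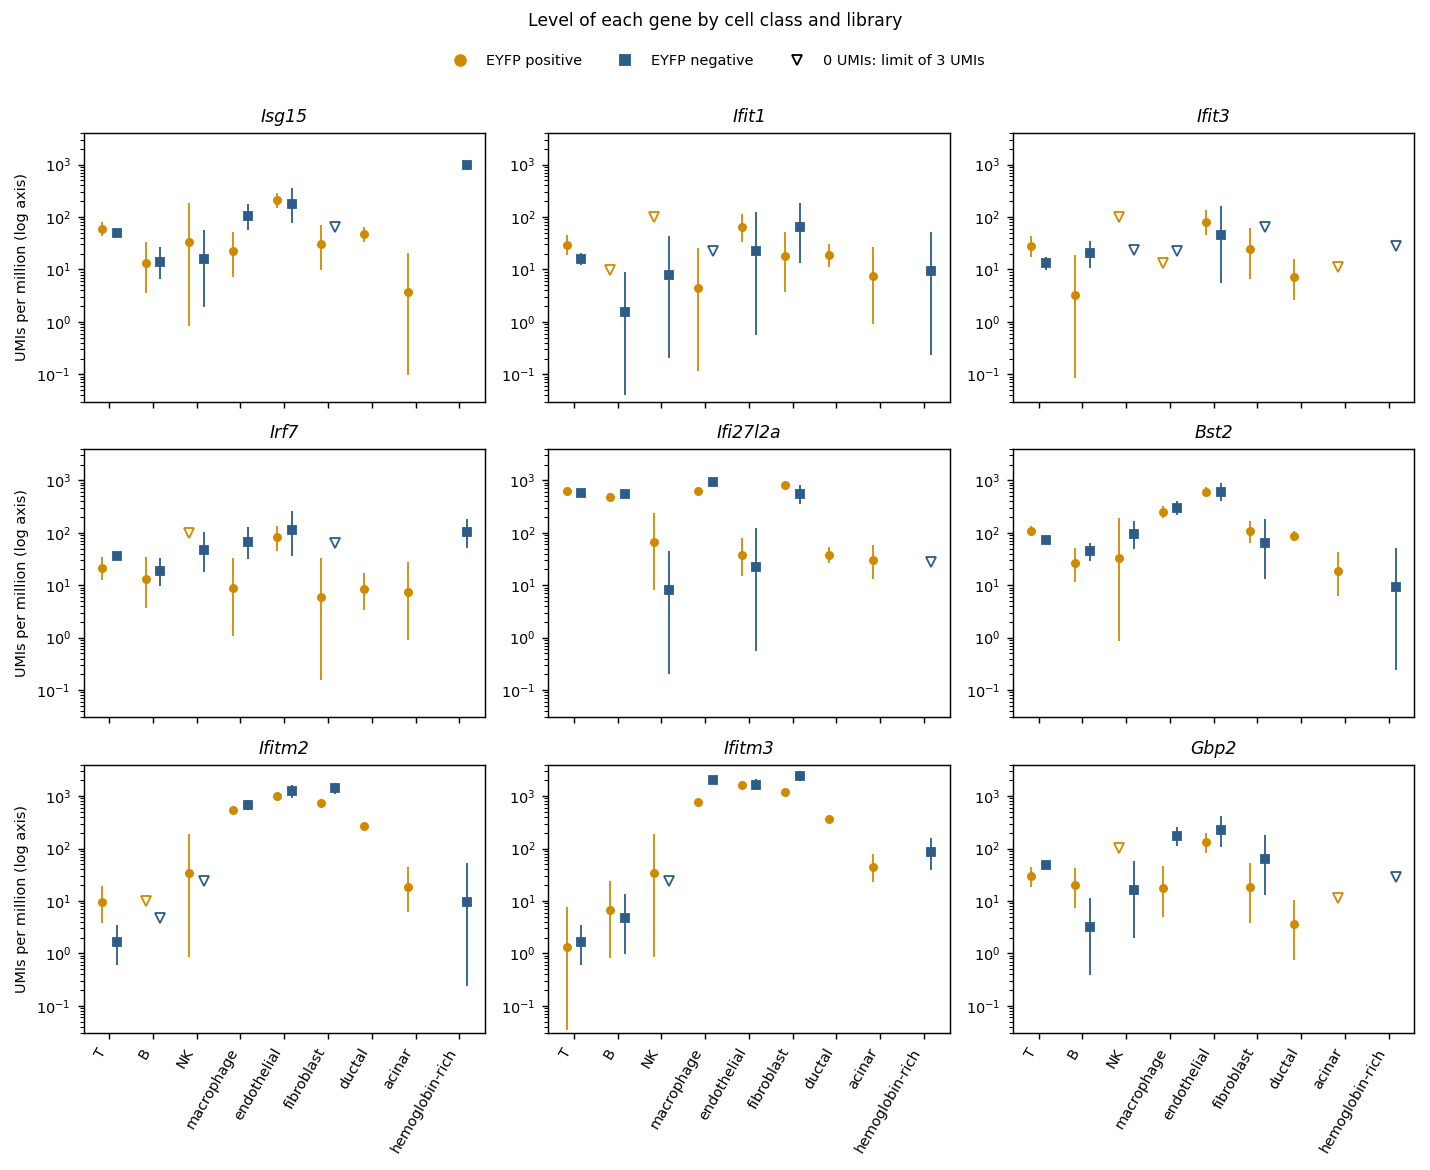
Level of each of the 9 members in each class and library, in CPM (log axis), with EYFP positive on the left of EYFP negative; bars are exact Poisson 95% intervals for counting error, and an open triangle marks 0 UMIs at the level that 3 UMIs would give. Ifitm2 and Ifitm3 are high in endothelial-like, fibroblast-like, macrophage-like and ductal-like cells and near the floor in T-like and B-like cells. Ifi27l2a is high in T-like, B-like, macrophage-like and fibroblast-like cells and low in endothelial-like cells.

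Irf7 is the transcription factor that amplifies type I interferon production, and it is itself interferon-induced (chr7:141262706-141266481, minus strand). It was at 81.5 CPM (45.6 to 134) in EYFP positive and 112 CPM (36.4 to 262) in EYFP negative blood endothelial-like cells, and at 21.6 and 35.9 CPM in T-like cells. In T-like cells this was 16 UMIs in 14 of 232 EYFP positive cells and 132 UMIs in 94 of 398 EYFP negative cells, a ratio of 0.601 (0.334 to 1.01) whose interval reaches past 1. Within the cluster that held most EYFP negative T-like cells the levels were 19.0 and 40.2 CPM (7 against 104 UMIs), a ratio of 0.472 (0.185 to 1.01) that is past 2-fold. The ratio over all T-like cells was past 2-fold in 2 of 13 alternatives, down to 0.381 with each cell thinned to 500 UMIs (2 against 9 UMIs). Macrophage or monocyte-like cells had 2 UMIs in 53 EYFP positive cells and 9 UMIs in 11 EYFP negative cells, and 5 of those 9 were in 1 cell. In EYFP positive ductal-like and acinar-like cells Irf7 was at 8.39 and 7.51 CPM, beside 13.3 and 18.9 CPM in the B-like cells of the EYFP positive and EYFP negative libraries, with intervals that overlap.

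Isg15 encodes a ubiquitin-like modifier that is attached to other proteins and also secreted (chr4:156199424-156200818, minus strand). Among the named classes it was highest in blood endothelial-like cells, at 212 CPM (151 to 290; 39 UMIs in 16 of 58 cells) in the EYFP positive library and 180 CPM (77.5 to 354; 8 UMIs in 6 of 11 cells) in the EYFP negative library. T-like cells followed in the EYFP positive library at 59.3 CPM (43.1 to 79.6), and had 49.8 CPM (42.8 to 57.5) in the EYFP negative library, a ratio of 1.19 (0.837 to 1.66) that ran from 0.715 as a mean over cells to 2.18 thinned to 1000 UMIs. B-like cells were lower, at 13.3 and 14.2 CPM, and EYFP positive acinar-like cells had 1 UMI in 87 cells. EYFP positive ductal-like cells averaged 46.7 CPM, but 26 of their 39 UMIs came from 2 cells with 13 UMIs each. These cells were deep, with 20971 and 90166 UMIs against a median of 801.5 for the class. Macrophage-like cells had 22.6 CPM in EYFP positive and 106 CPM in EYFP negative cells (5 against 14 UMIs).

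The largest number of Isg15 UMIs in a cell was not in any of these classes. A hemoglobin-rich cell of the EYFP negative library held 99 of that library's 323 Isg15 UMIs (30.7%), against 9 in all 104 B-like cells, 14 in 11 macrophage-like cells and 8 in 11 endothelial-like cells. The cell had 27123 UMIs, 63.8% of them hemoglobin, and 65 and 46 UMIs of Slc4a1 (the red-cell anion exchanger) and Alas2 (the first enzyme of erythroid heme synthesis). Isg15 was at 3650 CPM within the cell and ranked 13th among its genes outside mitochondrial and ribosomal protein genes. Most other members had no UMI in it: Ifit1, Ifit3, Ifi27l2a, Bst2, Ifitm2 and Gbp2 had 0 UMIs there, Irf7 had 6 and Ifitm3 had 4. Genes of ISG15 conjugation were present, with 22 UMIs of Ube2l6 (the conjugating enzyme), 6 of Uba7 (the activating enzyme) and 3 of Usp18 (which removes the modifier), while Herc6 of the same list had 0. Also present was the exonuclease gene Isg20, with 25. Of the 140 other interferon-list genes 29 had a UMI in this cell. The share of all genes with a UMI in it was not computed, so this count is a description only.

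The other 5 hemoglobin-rich cells held 0 to 4 Isg15 UMIs each. Ube2l6 had 5 to 26 UMIs and Isg20 had 4 to 25 UMIs in every one of the 6, so neither was particular to the cell with 99 Isg15 UMIs. The Isg15 level of the 6 cells, 986 CPM, is therefore mostly 1 cell. The all-cell ratio turned on it as well, since it moved to 0.989 (0.788 to 1.24) without the top cell of each library and to 1.1 without the 6 hemoglobin-rich cells. No hemoglobin-rich cell of this kind was found in the EYFP positive library, so the level there cannot be compared.

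**Figure D2:**
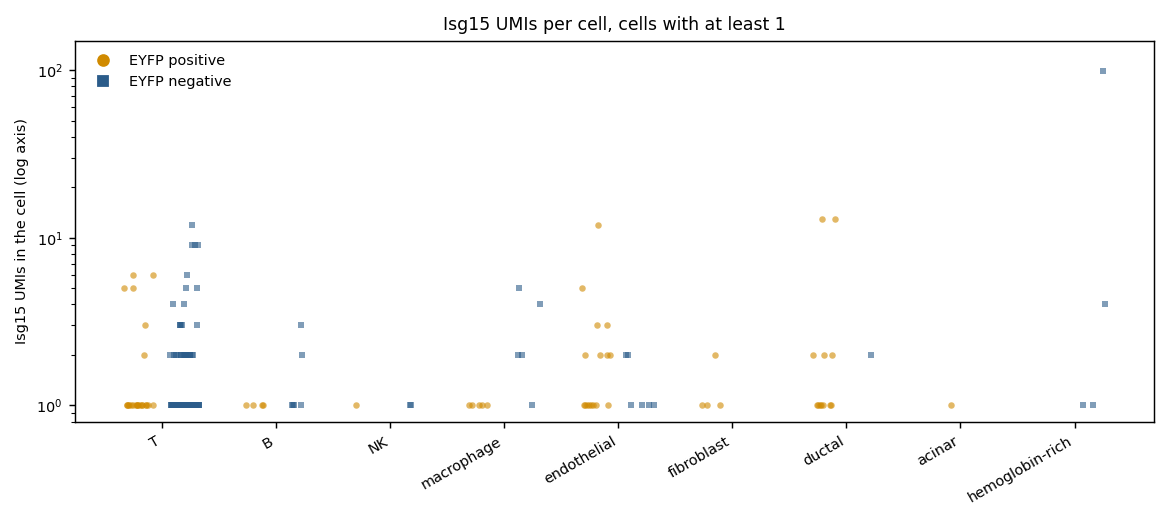
Isg15 UMIs in every cell with at least 1, by class, for the EYFP positive (left) and EYFP negative (right) libraries. The hemoglobin-rich cell with 99 UMIs stands alone at the top, and the next cells hold 13 or fewer.

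Ifit1 and Ifit3 encode tetratricopeptide proteins, of which Ifit1 binds foreign RNA and restrains its translation (chr19:34640871-34650009 and chr19:34583531-34588731, both plus strand). Ifit1 was at 65.2 CPM (33.7 to 114) in EYFP positive endothelial-like cells, 29.7 CPM (18.6 to 44.9) in EYFP positive T-like cells and 19.2 CPM (11 to 31.1) in EYFP positive ductal-like cells, and neighbours in that order overlap in their intervals. In the EYFP negative library endothelial-like and T-like cells had 22.4 CPM (1 UMI) and 16 CPM (12.2 to 20.7), and 3 UMIs in 6 fibroblast-like cells gave 63.3 CPM. In T-like cells Ifit1 had 22 UMIs in 10 of 232 EYFP positive cells and 59 in 30 of 398 EYFP negative cells, a ratio of 1.85 (1.08 to 3.06). Within the largest T-like cluster it was 1.88 (0.986 to 3.37). B-like cells had 0 and 1 Ifit1 UMIs, where 3 UMIs would be 9.95 and 4.72 CPM. The endothelial-like ratio of 2.90 (0.430 to 124) rests on 12 against 1 UMI, and without the top cell it is only known to be at least 0.626.

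Ifit3 in T-like cells had 21 UMIs in 10 of 232 EYFP positive cells (28.3 CPM) and 48 UMIs in 26 of 398 EYFP negative cells (13.1 CPM), a ratio of 2.17 (1.23 to 3.69). This is past 2-fold, but 5 of the 21 UMIs were in 1 cell and the ratio was 1.86 without the top cells. Within the largest T-like cluster it was 2.39 (1.24 to 4.38), from 15 against 44 UMIs. Thinned to 1000 UMIs, which left out the cells with fewer, the T-like ratio turned to 0.792. In B-like cells Ifit3 went the other way, with 1 UMI in EYFP positive cells and 13 in EYFP negative cells, a ratio of 0.162 (0.00381 to 1.08), and 5 of the 13 were in 1 cell. Neither library had an Ifit3 UMI in its macrophage-like or NK-like cells. Of the 50-base windows of Ifit3 transcripts 51.2% also occur in its neighbour Ifit3b, which had 16 and 11 UMIs, so the Ifit3 counts are uncertain by what the authors' counting assigned to either copy. For Ifit1 the share was 7.13%.

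In T-like cells 2 of the 8 members with at least 10 UMIs were 2-fold higher and 0 were 2-fold lower, beside 3.04% of 10106 genes higher and 9.91% lower. The second gene past the line was Ifitm2, at 7 against 6 UMIs (5.78, 1.66 to 20.8). Ductal markers summed to 156 CPM in EYFP positive and 8.16 CPM in EYFP negative T-like cells, and acinar markers to 5931 and 68.0 CPM. The part of transcripts from other cells in the Ifitm2 ratio was not tested. In B-like cells 0 of 5 were higher and 1, Ifit3, was lower, beside 5.34% of 7037 genes higher and 9.92% lower. Without the top cell of each gene in each library both counts were 0, although T-like Ifitm2, then at 4 against 4 UMIs and so under the minimum of 10, still had a ratio of 5.02 (0.935 to 27.0).

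**Figure D3:**
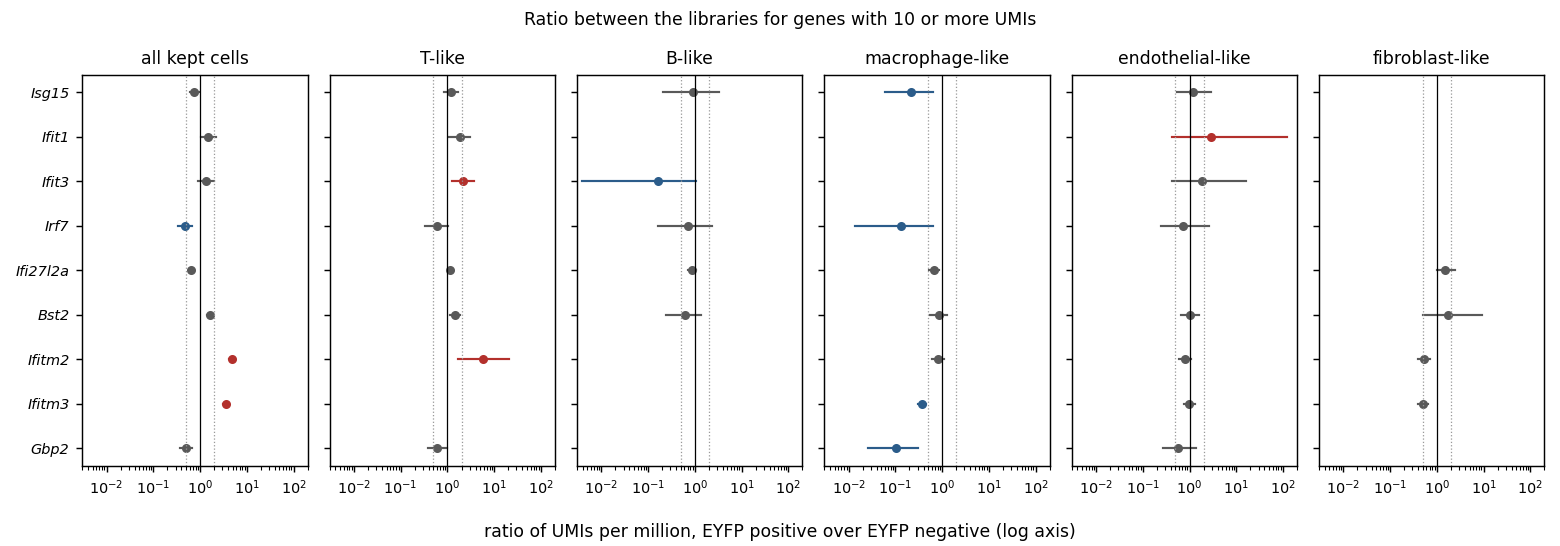
Ratio of EYFP positive to EYFP negative level (log axis) for each member in all kept cells and in 5 classes, with exact 95% intervals for counting error; dotted lines mark 0.5 and 2, red marks 2-fold higher, blue 2-fold lower and grey neither, and intervals are drawn no further than the axis. In all kept cells Ifitm2 and Ifitm3 lie at 4.70 and 3.53, while in the macrophage-like, endothelial-like and fibroblast-like panels no Ifitm ratio lies above 1.

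Ifitm2 and Ifitm3 encode small membrane proteins that hinder the fusion of viruses with endosomes (chr7:140954837-140955987 and chr7:141009586-141010770, both minus strand). Both had their high levels in the endothelial-like, fibroblast-like, macrophage-like and ductal-like classes here. The EYFP positive ductal-like class also held endocrine transcripts. Its 8 endocrine markers summed to 35295 CPM, beside 28838.5 CPM for the 13 ductal markers. The part of endocrine transcripts or cells in its levels was not tested. Ifitm3 was at 1641 CPM (1461 to 1837) in EYFP positive and 1661 CPM (1304 to 2085) in EYFP negative endothelial-like cells, 1193 and 2386 CPM in fibroblast-like cells and 758 and 2006 CPM in macrophage-like cells. EYFP positive ductal-like cells had 360 CPM (320 to 403) and acinar-like cells 45.1 CPM (23.3 to 78.7). The ductal-like value joined 432 CPM in a cluster of 28 deeper cells with 170 CPM in a cluster of 194 cells. T-like cells were at 1.35 CPM (1 UMI in 232 cells) and 1.63 CPM (6 UMIs in 398 cells), and B-like cells at 6.63 and 4.72 CPM. The share of cells with an Ifitm3 UMI was 81.0% of EYFP positive endothelial-like cells at a median depth of 1212.5 UMIs, against 0.431% of EYFP positive T-like cells at 1194 UMIs.

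Ifitm2 was high in the same classes, with 984 and 1235 CPM in endothelial-like cells, 753 and 1415 CPM in fibroblast-like cells, 541 and 671 CPM in macrophage-like cells and 264 CPM in EYFP positive ductal-like cells. It had 0 UMIs in all B-like cells of both libraries, which allows up to 9.95 and 4.72 CPM. Within the 3 classes with high Ifitm levels in both libraries no reported ratio was above 1. For Ifitm3 they were 0.988 (0.764 to 1.29) in endothelial-like cells, which came to 1.93 with each cell thinned to 500 UMIs, 0.5002 (0.395 to 0.636) in fibroblast-like cells, of which the EYFP negative library held only 6, and 0.378 (0.310 to 0.460) in macrophage-like cells. For Ifitm2 they were 0.797, 0.533 and 0.806. The shares of these classes differed between the libraries: macrophage-like, endothelial-like and fibroblast-like cells made up 6.16%, 6.74% and 7.44% of EYFP positive cells and 1.99%, 1.99% and 1.08% of EYFP negative cells. Ductal-like cells, which held 220 of the 659 Ifitm2 and 300 of the 984 Ifitm3 UMIs of the EYFP positive library, made up 25.8% of EYFP positive cells and 0.362% (2 cells) of EYFP negative cells, so no ratio could be had within them. The part of cell type shares in the all-cell ratios was not tested. Of the 50-base windows of Ifitm2 48.5% also occur in other annotated copies, and 10.0% of those of Ifitm3. The copy that shares the most windows with Ifitm2, Gm45717, had 0 UMIs in either library. A share of windows is not a share of UMIs, and how many UMIs came from a copy was not tested.

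Both Ifitm genes were found in the same cells. An Ifitm3 UMI was present in 35 of the 54 EYFP positive ductal-like cells with an Ifitm2 UMI (64.8%, 50.6 to 77.3) and in 21 of the 168 without (12.5%, 7.91 to 18.5), although the cells with Ifitm2 were deeper, with a median of 6715.5 against 743 UMIs. In EYFP positive endothelial-like cells the counts were 34 of 37 and 13 of 21, again with a gap in depth (4462 against 761 UMIs). Across the 10 groups of a class in a library with at least 20 cells, the profiles of Ifitm2 and Ifitm3 had r = 0.986, higher than any other pair of members. These groups share libraries and depth, so the value is a description.

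Bst2 encodes tetherin, which holds budding virus particles to the cell surface (chr8:71534255-71537456, minus strand). It was highest in endothelial-like cells, at 609 CPM (501 to 732) in EYFP positive and 606 CPM (399 to 882) in EYFP negative cells, a ratio of 1.00 (0.655 to 1.59). Macrophage-like cells had 253 and 302 CPM, T-like cells 108 and 74.0 CPM, and B-like cells 26.5 and 44.1 CPM. The T-like ratio was 1.46 (1.12 to 1.88), from 80 UMIs in 42 cells against 272 UMIs in 169 cells. Within the largest T-like cluster it was 1.94 (1.42 to 2.61), and in other T-like clusters 0.981 (0.305 to 2.45) and 1.21 (0.351 to 3.38). EYFP positive ductal-like cells had 87.5 CPM (68.6 to 110) and acinar-like cells 18.8 CPM (6.10 to 43.8). In NK-like cells Bst2 was the only member with at least 10 UMIs and was counted as lower, at 1 against 12 UMIs, beside 33.4% of 2391 genes that were lower and 4.1% that were higher there. That direction turned to 1.38 with a stricter barcode filter and to 1.15 at clustering resolution 2.0. The NK-like cells of the libraries shared no cluster and differed in markers. In EYFP positive NK-like cells the 10 NK, 13 ductal and 16 acinar markers summed to 3598, 3733 and 20311 CPM. In EYFP negative NK-like cells they summed to 9510, 7.96 and 71.7 CPM. With each cell classed by its own markers, 2 EYFP positive and 16 EYFP negative cells were NK-like.

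Ifi27l2a, of the family of small hydrophobic Ifi27 proteins, had high levels in T-like, B-like, macrophage-like and fibroblast-like cells (chr12:103442167-103443680, minus strand). It had 465 UMIs in 109 of 232 T-like cells (627 CPM, 571 to 686) in the EYFP positive library and 2067 UMIs in 314 of 398 (562 CPM, 538 to 587) in the EYFP negative library, a ratio of 1.11 (1.01 to 1.23). B-like cells had 481 and 548 CPM, macrophage-like cells 618 and 943 CPM, and fibroblast-like cells 832 and 549 CPM. Endothelial-like cells, where most other members were highest, had 38 CPM (7 UMIs) and 22.4 CPM (1 UMI), and NK-like cells 2 and 1 UMIs. The 6 hemoglobin-rich cells had none, where 3 UMIs would be 28.2 CPM. Thinned to 500 UMIs per cell, an Ifi27l2a UMI was found in 22.4% of T-like cells of either library (17.2 to 28.3 and 18.4 to 26.8).

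The all-cell ratio of Ifi27l2a was 0.643, beside 1.11 in T-like cells, which lay below 1 in 3 of 13 alternatives, and 0.878 (0.718 to 1.07) in B-like cells. Within the largest T-like cluster the Ifi27l2a ratio was 1.41 (1.23 to 1.62), and in other T-like clusters 1.19 (0.951 to 1.47) and 0.837 (0.379 to 1.67). Among T-like clusters of at least 5 cells its level ran from 207 CPM to 1031 CPM in the EYFP positive library and from 247 to 866 CPM in the EYFP negative library. The cluster at the high end of both ranges was the same, with 1031 CPM in 13 EYFP positive cells and 866 CPM in 77 EYFP negative cells. The single highest cell, an EYFP negative T-like cell, held 100 Ifi27l2a UMIs and no Isg15, Ifit1 or Ifit3 UMI. The profile of Ifi27l2a over the 10 groups had r = 0.063 with the mean of the 9 members, against 0.593 to 0.935 for the other 8. Each gene is itself part of that mean, which raises its r.

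Gbp2 encodes a guanylate-binding GTPase that coats vacuoles of intracellular microbes and is strongly induced by interferon gamma (chr3:142620602-142638008, plus strand). It was highest in endothelial-like cells, at 130 CPM (83.6 to 194) and 224 CPM (108 to 413). T-like cells had 22 UMIs in 15 of 232 EYFP positive cells (29.7 CPM) and 178 UMIs in 96 of 398 EYFP negative cells (48.4 CPM), a ratio of 0.612 (0.374 to 0.957). Thinned to 500 UMIs per cell, the T-like ratio was 0.264, and within the largest T-like cluster it was 0.883 (0.499 to 1.47). Few cells decided the other values: all 6 UMIs of EYFP positive B-like cells were in 1 cell, and 20 of the 23 UMIs of EYFP negative macrophage-like cells were in 1 cell. Acinar-like cells had none.

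In macrophage or monocyte-like cells 4 of the 7 members with at least 10 UMIs were 2-fold lower in the EYFP positive library and 0 were higher, beside 13.2% of 4673 genes lower and 15.1% higher. Ifitm3 rested on the most UMIs, 168 in 53 EYFP positive cells against 266 in 11 EYFP negative cells, and its ratio was 0.358 without the top cell of each library. Isg15 (0.214), Irf7 (0.133) and Gbp2 (0.104) rested on 2 to 23 UMIs per library. Without the top cells Isg15 and Irf7 were at 0.231 and 0.136, and Gbp2 had 3 UMIs in either library, which gives no ratio. The EYFP positive class joined 27 cells of the cluster that held all 11 EYFP negative cells with 26 cells of a cluster with a median of 867.5 UMIs, whose leading genes include hemoglobin genes. Within the cluster that held all 11 EYFP negative cells the ratios were 0.415 (0.339 to 0.508) for Ifitm3 and 0.149 (0.0274 to 0.534) for Isg15. For Irf7 and Gbp2 they were 0.154 (0.0162 to 0.746) and 0.121 (0.0304 to 0.354) there. The part of cell number, cluster and depth in the ratios of the class was not tested. In endothelial-like cells 1 of 8 members was higher and 0 were lower (13.4% and 14.2% of 4088 genes), and in fibroblast-like cells 0 of 4 passed 2-fold (14.9% and 18% of 3526 genes).

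Isg15, Ifit1, Ifit3 and Irf7 met in few cells. A UMI of at least 3 of these 4 genes was found in 12 of 860 cells (1.40%, 0.723 to 2.42) of the EYFP positive library, against 23 of 553 (4.16%, 2.65 to 6.18) of the EYFP negative library. They held 122 of 241 (50.6%) and 157 of 452 (34.7%) of all Isg15, Ifit1 and Ifit3 UMIs. In T-like cells 4 of 232 EYFP positive cells held 40 of 87 such UMIs (46.0%), and 17 of 398 EYFP negative cells held 134 of 290 (46.2%). In EYFP positive ductal-like cells 2 of 222 cells held 43 of 61 (70.5%), and in endothelial-like cells 4 of 58 held 31 of 66 (47.0%). Because these genes chose the cells, the shares describe how unevenly the UMIs lie. Depth entered the choice in the EYFP positive library, where the 4 T-like cells had a median of 7191.5 UMIs against 1194 for the class, and less so in the EYFP negative library, with 9043 against 8622. The 2 ductal-like cells had a median of 55568.5 UMIs against 801.5 for their class. For the 4 endothelial-like cells it was 6359.5 against 1212.5.

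The share of cells with an Ifit1 or Ifit3 UMI was set side by side for cells with and without Isg15. Among T-like cells it was 7 of 23 (30.4%, 13.2 to 52.9) against 10 of 209 (4.78%, 2.32 to 8.62) in the EYFP positive library, and 23 of 100 (23.0%, 15.2 to 32.5) against 21 of 298 (7.05%, 4.41 to 10.6) in the EYFP negative library. Among T-like cells at or above the class's median depth it was 30.4% against 7.53% and 24.6% against 7.04%, with like depths on both sides (6224 against 6244 UMIs, and 11149 against 10387 UMIs). The intervals overlapped in the EYFP positive library (13.2 to 52.9 and 3.08 to 14.9) and did not in the EYFP negative library (14.1 to 37.8 and 3.43 to 12.6). In EYFP positive endothelial-like cells the unrestricted shares, 43.8% and 19.0%, came to 46.7% and 42.9% in the deeper cells, so no gap was detectable among cells of like depth. In EYFP positive ductal-like cells 4 of 12 cells with Isg15 and 2 of 210 without it had Ifit1 or Ifit3, with medians of 22894.5 and 793 UMIs. Ifit3 was found in 12 of the 30 EYFP negative T-like cells with Ifit1 (40.0%, 22.7 to 59.4) and in 14 of the 368 without (3.8%, 2.1 to 6.30).

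**Figure D4:**
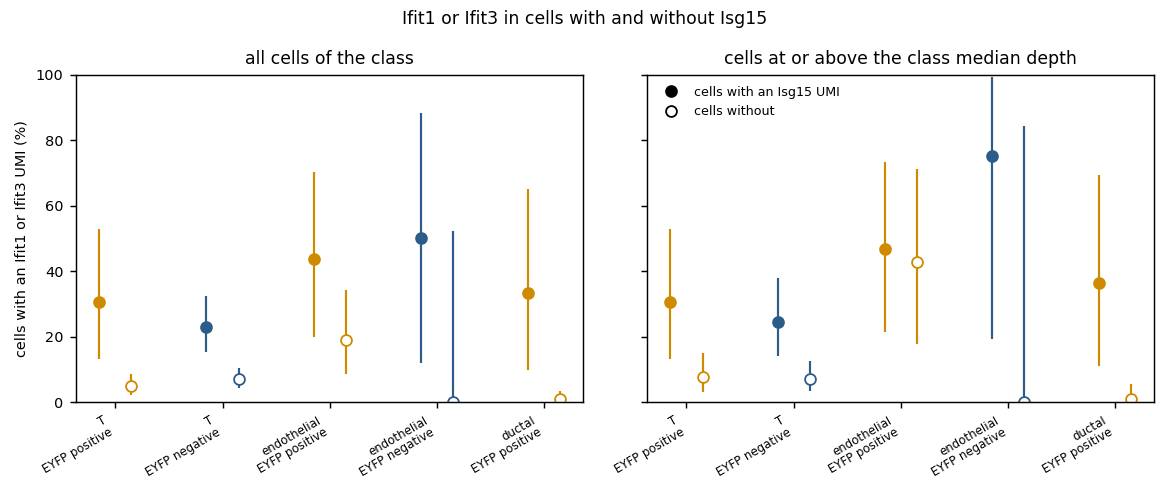
Percent of cells with an Ifit1 or Ifit3 UMI among cells with Isg15 (filled) and without Isg15 (open), for all cells of a class (left) and for cells at or above the class's median depth (right); bars are exact 95% intervals. In T-like cells of both libraries the filled points stay above the open ones in the right panel (30.4% and 7.53%, 24.6% and 7.04%), while in EYFP positive endothelial-like cells they come together.

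The 17 EYFP negative T-like cells with UMIs of at least 3 of the 4 genes were compared with the other 381 T-like cells of that library over the other genes of the interferon lists. Of the 93 such genes with at least 10 UMIs, 41 were at least 2-fold higher in the 17 cells and 3 were at least 2-fold lower, beside 7.43% of all 9823 genes higher and 9.59% lower, and the list's median log2 ratio was 0.80 beside -0.03 for all genes. Type I interferon-induced effectors made up most of it, with 24 of 33 higher (median 1.53). Oasl2, of the oligoadenylate synthetase family, had 16 UMIs in the 17 cells against 14 in the other 381, a ratio of 25.7 (11.7 to 56.8). Rtp4, a receptor transporter protein, was 6.05-fold higher (28 against 104 UMIs) and Usp18 7.77-fold higher (18 against 52 UMIs). The 3 other members with enough UMIs were also higher: Bst2 4.33-fold, Ifi27l2a 2.85-fold and Gbp2 2.22-fold.

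Of the interferon receptors 0 of 5 passed 2-fold, with Ifnar1 at 0.961 and Ifngr1 at 0.817, and of the signal transducers 0 of 6 were higher, with Jak1 at 0.867. Genes linked to interferon gamma were between, with 6 of 15 higher: the GTPase gene Irgm1 was 4.52-fold higher, while the immunoproteasome genes Psmb8 and Psmb9 lay at 1.28 and 1.08. All 17 cells lay in the largest T-like cluster (17 of 300 cells there, and 0 of the 77, 18 and 3 cells of the other T-like clusters), although no interferon-list gene was used to cluster. Against the other 283 cells of that cluster alone, 39 of 87 listed genes were higher and 2 lower (7.83% and 8.69% of 8829 genes).

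**Figure D5:**
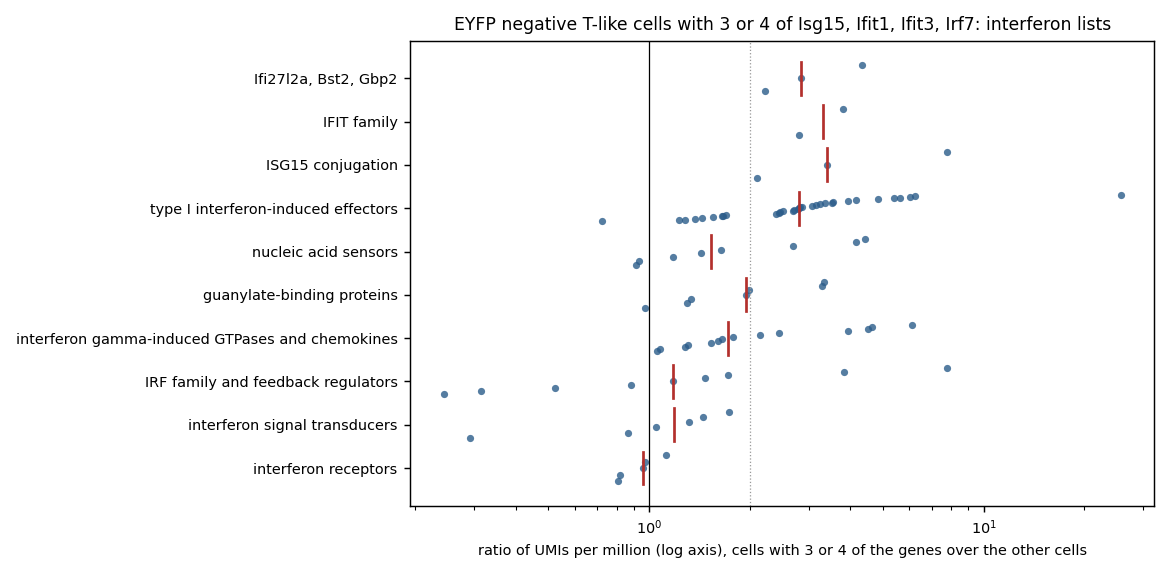
Ratio (log axis) of each interferon-list gene in the 17 EYFP negative T-like cells with UMIs of at least 3 of Isg15, Ifit1, Ifit3 and Irf7 over the other 381 T-like cells, by list; a red bar marks the median of a list. Type I interferon-induced effectors (24 of 33 past 2-fold) and ISG15 conjugation genes (3 of 3) lie to the high side, and receptors and signal transducers lie around 1.

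The rest of the pathway was compared between the libraries in the same way. Of 95 listed genes other than the members 3 were 2-fold higher and 5 were 2-fold lower in EYFP positive T-like cells (3.04% and 9.91% of all genes), and their median log2 ratio was -0.01 beside -0.10 for all genes. The lower count was 16 as a mean over cells and 10 under either thinning. Ifnar1 was at 52.6 and 53.0 CPM and Ifngr1 at 108 and 77.5 CPM. Over all cells 12 of 110 listed genes were higher and 21 were lower (26.8% and 8.06% of all genes), with a median of -0.33 beside 0.21 for all genes. Among the lower ones were 6 of 16 genes linked to interferon gamma, such as Psmb9 (0.4996, 288 against 1020 UMIs), and among those neither higher nor lower were all 5 receptor genes and all 6 transducer genes.

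Of the 21 listed interferon ligands Ifng alone reached 10 UMIs. It had 11 UMIs in 8 EYFP positive cells and 58 UMIs in 22 EYFP negative cells. T-like cells held 10 of the 11 and 53 of the 58, at 13.5 and 14.4 CPM, a ratio of 0.935 (0.424 to 1.86), and the remaining 1 and 5 were in NK-like cells. Ifng had 0 UMIs in the 17 EYFP negative T-like cells described above, against 53 in the other 381, and at most 3 UMIs in 17 cells would give a ratio of 1.27.

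The genes whose profile over the 10 groups was most like the mean of the 9 members, among 7492 genes with at least 100 UMIs, were Rtp4 (r = 0.966), Ubxn8 (0.955), Ttc28 (0.945), Fez2 (0.939) and Kctd10 (0.937). Rtp4 is itself an interferon-list gene. Of the members Bst2 came closest to the mean (0.935), followed by Gbp2 (0.871), Ifit1 and Isg15 (both 0.856) and Ifit3 (0.828). All these values rest on 10 points with shared libraries and depths, and each member is itself part of the mean, which raises its r.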

How the data were processed

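Single-cell RNA was measured in 1 EYFP positive and 1 EYFP negative library, made with the 5′ Chromium kit (version 1.1) per the labels' protocols. Which transcript end was read was not settled from the counts. The authors deposited raw UMI counts, whole numbers for each gene in each barcode. The submitters' processing notes name Cell Ranger 2.1.0 and GRCh38, while the headers give software version 3.1.0 and mouse gene identifiers, so the build of the mapping is unsettled. Whether the counting used strand is not stated. Gene positions are those of GENCODE M21 (GRCm38) for the same identifiers.

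Cells were kept from 200 genes up and to 20% mitochondrial UMIs. The 6 cells above 50% hemoglobin UMIs (lowest 58.4%, highest of all others 21.8%) were set apart by a limit chosen after seeing the data. Both libraries were clustered together without batch correction in scanpy 1.11.5 (Python 3.11.15, leidenalg 0.10.2), from genes in at least 3 cells, with 2000 variable genes, 30 principal components, 15 neighbours and Leiden resolution 1.0. A cluster was named where at least 3 markers stood 2-fold above the other clusters of the same library with at least 5 UMIs, and this rule was written after clusters had been seen. No doublet was removed, and Scrublet called 2 in the EYFP positive and 5 in the EYFP negative library.

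Within each library and class, UMIs were added up and scaled to the total (CPM). Levels carry exact Poisson, shares exact Clopper-Pearson and ratios exact conditional binomial 95% intervals (scipy 1.17.1), which cover counting error only. Cells of 1 library are not replicates, and no p-value was made. A gene was called at a ratio of at least 2 or at most 0.5 with at least 10 UMIs over both libraries; against 0 UMIs a floor of 3 UMIs per sum gave a bound, and list medians used a pseudocount of 0.5 UMI. Levels were given for classes of at least 5 cells, and a window of 50 transcript bases was used to find copies. All 9 members were named, up to 4 genes with the most UMIs of each other list, and the 5 genes with the most similar profile. Oasl2, Irgm1, Isg20, Ifit3b and the erythroid genes were named after their values were seen. The members and lists were chosen with earlier results of these data known. Each result was recomputed under 14 other settings and 3 chosen after seeing the data, namely leaving out cells under 1000 UMIs, the hemoglobin-rich cells and the barcodes found in both libraries. The code was tested on simulated data.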

Additional observations from a re-analysis of the deposited data

How the results depend on the processing

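No paired analysis was possible because each group is 1 library and no result comes from a test. Over all cells Ifitm2 (2.89 to 5.20) and Ifitm3 (2.77 to 4.17) stayed past 2-fold in 11 of 11 alternatives, and Irf7 (0.369 to 0.791) in 8 of 11. Of the ratios under alternatives, 422 lay within the interval of the reported ratio, 60 lay outside it or were bounds and 3, all of genes past 2-fold as reported, changed direction: T-like Ifit3 thinned to 1000 UMIs (0.792), and NK-like Bst2 under the stricter barcode filter of 500 genes and 10% mitochondrial UMIs (1.38) or at resolution 2.0 (1.15). The cause was not tested. Among ratios that were within 2-fold as reported, 27 of 355 values under alternatives lay on the other side of 1, in 12 of 30 results, such as all-cell Isg15 (up to 1.1) and Ifit3 (down to 0.281), T-like Isg15 (down to 0.715) and B-like Isg15 (up to 1.32).

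Counts past 2-fold that moved by over 1.5 times in all cells, T-like cells and B-like cells were these. Over all cells, members lower (1) were 3 with every deposited barcode and 2 with the total without acinar, mitochondrial and ribosomal genes, thinned to 1000 UMIs, or without the top cell, the Scrublet cells, the hemoglobin-rich cells or the shared barcodes. Other listed genes higher (12) were 2 and 3 thinned to 500 and 1000 UMIs, and lower (21) were 37 with every barcode and 37 as a mean over cells. In T-like cells, members higher (2) were 1 under either thinning, 1 at 30 UMIs or more, and 0 without the top cell or at resolution 2.0. Members lower (0) were 1 as a mean over cells, 2 and 1 thinned to 500 and 1000 UMIs, and 1 at resolution 2.0. Other listed genes higher (3) were 6 at 500 genes or more, 1 as a mean over cells and 1 thinned to 500 UMIs; lower (5) were 3 at 500 genes or more, 16 as a mean over cells and 10 under either thinning. In B-like cells, members higher (0) were 1 at 500 genes or more and 1 from 1 UMI; members lower (1) were 0 under either thinning, without the top cell and at 30 UMIs or more. Other listed genes higher (2) were 5 at 500 genes or more, 0 and 1 under the thinnings, 4 with interferon lists kept in the clustering, 4 with each cell's own markers and 0 at 30 UMIs or more; lower (5) were 8 with the reduced total, 23 as a mean over cells, 2 thinned to 1000 UMIs, 10 without the top cell, 3 at 30 UMIs or more and 8 from 1 UMI. In the other classes, members lower ran from 0 to 1 in NK-like (1), 1 to 6 in macrophage-like (4), 0 to 1 in endothelial-like (0) and 0 to 2 in fibroblast-like cells (0), and members higher from 0 to 2 in endothelial-like (1) and 0 to 1 in fibroblast-like cells (0). The EYFP positive depth, with a median of 1007.5 UMIs per cell, limits every member with few UMIs.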
